A study of Homo sapiens with 3 samples.

Results

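Glypicans and syndecans are the families of cell surface proteoglycans that carry heparan sulfate, and their 10 genes were examined in the RNA of H9 cells, an established human embryonic stem cell line. The members were taken by name, not by level, as the 6 glypican genes (GPC1 to GPC6) and the 4 syndecan genes (SDC1 to SDC4) among the 58051 genes with deposited counts, and all 10 were found. Total RNA depleted of ribosomal RNA was sequenced from 3 replicates of wild-type, untreated H9 cells, grown in Essential 8 Flex medium on plates coated with vitronectin. There was 1 condition, so no groups were compared, and the spread between replicates is the error given. The labels do not say whether the replicates came from separate cultures, so this spread may be technical. Levels are given as reads counted on a gene and as TPM, a level per transcript length, that is, reads divided by the length of the gene's exons and scaled to the same sum in each replicate. In bulk RNA of this kind, fewer cells expressing a gene and less RNA per cell cannot be told apart.

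Heparan sulfate is a long, sulfated sugar chain that is built in the Golgi on serines of a core protein and carried to the cell surface. Glypicans are held in the outer leaflet of the membrane by a glycosylphosphatidylinositol anchor, whereas syndecans cross the membrane and end in a short cytoplasmic tail that binds scaffold proteins and the cytoskeleton. On both, the chains bind growth factors and matrix proteins, among them FGF2, which pluripotent stem cells need in culture, and act as coreceptors for FGF, WNT, BMP and Hedgehog ligands.

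The bases that precede the annotated start of transcription are shown for the members with the highest levels, GPC4 and SDC4, for the member with the fewest reads, GPC5, and for its neighbor on the chromosome, GPC6. Each is the 250 bases upstream of the RefSeq start on GRCh38.p14, read 5′ to 3′ on the strand of the gene. Capitals mark GGGCGG on either strand, which is the core of the GC box bound by SP1 and related factors, and overlapping matches were counted separately.
GPC4 (chrX:133415490-133415739, minus strand): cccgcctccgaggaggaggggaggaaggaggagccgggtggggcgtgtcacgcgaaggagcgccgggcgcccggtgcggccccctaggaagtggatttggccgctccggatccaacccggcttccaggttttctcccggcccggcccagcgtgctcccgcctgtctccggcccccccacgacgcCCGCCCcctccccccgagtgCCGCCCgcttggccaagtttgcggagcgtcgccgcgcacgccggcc
SDC4 (chr20:45348425-45348674, minus strand): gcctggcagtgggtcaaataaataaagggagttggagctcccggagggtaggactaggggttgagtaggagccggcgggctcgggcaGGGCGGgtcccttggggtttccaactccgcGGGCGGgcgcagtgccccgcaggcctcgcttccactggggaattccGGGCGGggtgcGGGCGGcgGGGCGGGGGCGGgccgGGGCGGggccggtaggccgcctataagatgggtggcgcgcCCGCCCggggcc
GPC5 (chr13:91398371-91398620, plus strand): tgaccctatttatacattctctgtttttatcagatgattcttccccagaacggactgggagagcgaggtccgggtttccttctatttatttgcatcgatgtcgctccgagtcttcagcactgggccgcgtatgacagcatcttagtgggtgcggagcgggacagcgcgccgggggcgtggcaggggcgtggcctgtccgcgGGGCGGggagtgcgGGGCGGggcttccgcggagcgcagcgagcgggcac
GPC6 (chr13:93226557-93226806, plus strand): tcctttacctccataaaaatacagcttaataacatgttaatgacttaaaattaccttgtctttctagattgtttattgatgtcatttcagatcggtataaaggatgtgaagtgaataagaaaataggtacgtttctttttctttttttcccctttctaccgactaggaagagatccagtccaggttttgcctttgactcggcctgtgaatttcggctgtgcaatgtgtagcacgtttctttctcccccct

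SDC4 held 8 of these matches, GPC4 and GPC5 held 2 each and GPC6 held none. Of the other members, SDC3 held 5, GPC1 4, GPC2 3 and SDC1 1 in each of the windows of its 2 annotated starts. At least 1 match was found in 54.3% of the 21507 upstream windows of protein-coding genes of the same length, and 4 or more in 10.3% of them. GC content was 76.0% for GPC4, 73.6% for SDC4 and 62.4% for GPC5, against a median of 62.0% over all windows. At 37.6%, the window of GPC6 was the least GC-rich of the members that had a window, and 5.08% of all windows were lower. SDC4 also carried TATAA on its own strand, starting 31 bases upstream of the start, and 5.57% of windows had this motif in their last 60 bases. A match in a window is a description, not a bound site, and the start sites used in these cells were not measured. Windows were examined for 8 of the 10 members, not for GPC3 and SDC2.

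Of the glypicans, GPC4 was by far the most abundant. GPC4 (ENSG00000076716, chromosome X, 133300103 to 133415489, minus strand) had 3884, 4506 and 3097 reads in replicates 1, 2 and 3, or 301, 300.3 and 281 TPM. Replicates 1 and 2 were almost equal and replicate 3 was slightly lower, with a mean of 294 ± 11.1 TPM (SD, n = 3). This placed GPC4 above 97.9% of the 19629 protein-coding genes, with 414 of them higher. Nearest to it in level over the 3 replicates were SEPTIN2, a cytoskeletal GTPase, at 296 TPM, BTF3, a subunit of the nascent polypeptide-associated complex, at 297 TPM, and PSMD2, a proteasome subunit, at 294 TPM. Their distances from GPC4, as the Euclidean distance of log2(TPM + 1) over the 3 replicates, were 0.028, 0.031 and 0.032.

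GPC3 and GPC6 had levels between those of GPC4 and the remaining glypicans. GPC3, the glypican that is mutated in the overgrowth disorder Simpson-Golabi-Behmel syndrome, lies beside GPC4 (ENSG00000147257, chromosome X, 133535745 to 133987100, minus strand) and had 391, 532 and 384 reads. Its levels were 45.8, 53.6 and 52.7 TPM, with replicate 1 below the others, and a mean of 50.7 ± 4.28 TPM (SD, n = 3). GPC6 (ENSG00000183098, chromosome 13, 93226807 to 94408020, plus strand), whose coding sequence was the closest to that of GPC4, had 865, 982 and 701 reads. It had 46.7, 45.6 and 44.4 TPM, with a mean of 45.5 ± 1.16 TPM (SD, n = 3). GPC3 was above GPC6 in 2 of 3 replicates and their ranges overlapped, so that their order was not resolved.

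GPC1 and GPC2 had lower levels. GPC1 (ENSG00000063660, chromosome 2, 240435663 to 240468076, plus strand) had 406, 449 and 445 reads, or 23.9, 22.7 and 30.7 TPM. Replicate 3 was the highest in TPM but not in reads, and the mean was 25.8 ± 4.32 TPM (SD, n = 3). GPC2 (ENSG00000213420, chromosome 7, 100169606 to 100177381, minus strand), best known from the developing nervous system, had 165, 203 and 161 reads. Its levels of 16.5, 17.5 and 18.9 TPM gave a mean of 17.6 ± 1.2 TPM (SD, n = 3), below GPC1 in every replicate.

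GPC5 (ENSG00000179399, chromosome 13, 91398621 to 92873682, plus strand) stood apart, with 5, 3 and 1 reads. These correspond to 0.544, 0.281 and 0.128 TPM, and a sum of 9 reads has an exact Poisson interval of 4.12 to 17.1 reads, or 0.145 to 0.603 TPM (95%). At this depth, the 3 reads that an observed count of 0 would still allow are worth 0.383 TPM in replicate 3. The variance between the replicates of GPC5 was 1.14 times that expected from counting alone, and with 9 reads no difference between them was resolved. The interval describes the error of counting alone, because reads copied from the same molecule by PCR are not independent.

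The syndecans spanned a narrower range, with SDC4 above the others. SDC4 (ENSG00000124145, chromosome 20, 45325288 to 45348424, minus strand), a syndecan found at focal adhesions, had 1256, 1556 and 1118 reads. Its levels were 185, 197 and 193 TPM, with a mean of 191 ± 6.18 TPM (SD, n = 3), above 96.4% of protein-coding genes. Nearest in level were SLC25A3, the mitochondrial phosphate carrier, at 193 TPM, CRKL, an adaptor of receptor signaling, at 193 TPM, and BIRC5, a subunit of the chromosomal passenger complex, at 196 TPM, with distances of 0.069, 0.070 and 0.074.

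SDC1 (ENSG00000115884, chromosome 2, 20200797 to 20225433, minus strand), a syndecan typical of epithelia and plasma cells, had 792, 874 and 611 reads and 84.2, 79.9 and 76.2 TPM. Replicate 1 was the highest and the mean was 80.1 ± 4.01 TPM (SD, n = 3). SDC2 (ENSG00000169439, chromosome 8, 96493813 to 96611790, plus strand), which is common in mesenchymal cells, had 634, 777 and 552 reads and 59.6, 62.9 and 60.9 TPM, with a mean of 61.1 ± 1.63 TPM (SD, n = 3). SDC3 (ENSG00000162512, chromosome 1, 30869466 to 30908758, minus strand), best known from neural tissue, had 738, 820 and 651 reads and 40.1, 38.4 and 41.5 TPM, with a mean of 40.0 ± 1.59 TPM (SD, n = 3). The levels of SDC1, SDC2 and SDC3 did not overlap between any of the 3 genes.

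**Figure D1:**
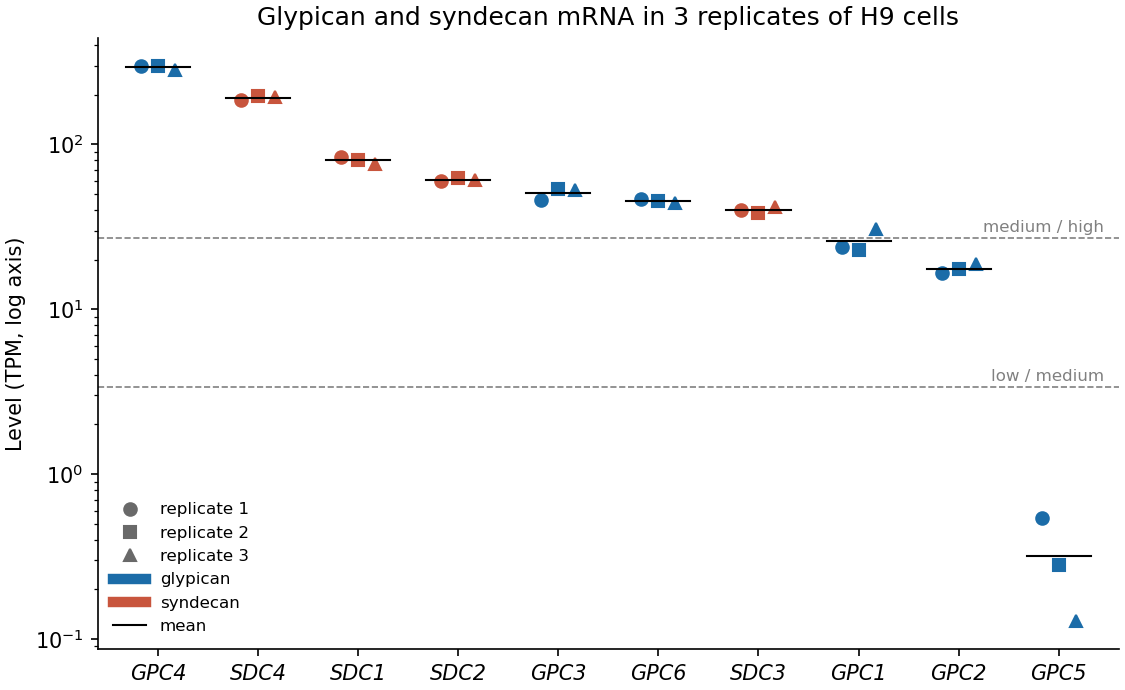
Level of each glypican (blue) and syndecan (red) gene in TPM on a log axis, with 1 point for each of the 3 replicates and a bar at the mean; dashed lines are the boundaries of the expression classes at 3.35 and 27.0 TPM. GPC4 and SDC4 lie above the others in every replicate, the replicates of GPC1 fall on both sides of the upper boundary, and GPC5 lies far below the remaining members.

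In order of mean level, the members were GPC4, SDC4, SDC1, SDC2, GPC3, GPC6, SDC3, GPC1, GPC2 and GPC5. Of the 9 pairs of neighbors in this order, 8 had ranges over the 3 replicates that did not overlap, and GPC3 and GPC6 was the exception. GPC4 was 1.54-fold above SDC4 (log2 ratio 0.62 ± 0.08, SD, n = 3), and SDC4 was 2.39-fold above SDC1 (1.26 ± 0.11). SDC1 over SDC2 (1.31-fold), SDC2 over GPC3 (1.21-fold) and GPC6 over SDC3 (1.14-fold) were small steps, each in the same direction in all 3 replicates. With 3 values, an exact two-sided sign permutation test cannot go below p = 0.25, so no p is given. The 8 members other than GPC3 and GPC6 had the same rank in each replicate. This order depends on length: by CPM, the reads of a gene scaled to the library total without division by exon length, GPC6 was the third member (82.0 CPM), SDC3 the fifth (71.5 CPM) and GPC3 the eighth (42.1 CPM), whereas GPC4 (369 CPM) and SDC4 (126 CPM) still came first.

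At least 1 TPM in every replicate was reached by 9 of the 10 members, against 65.1% of all protein-coding genes, and GPC5 was the exception. The study sorted genes by mean TPM into a nonexpressed class, below 0.01 TPM, and 3 quantiles of the remaining genes. Applied to these values, its high class, above 27.0 TPM, held 7 of the 10 members, against 28.8% of protein-coding genes. All 4 syndecans were in it, together with GPC3, GPC4 and GPC6. GPC1 and GPC2 were in the medium class and GPC5 in the low class. GPC1 was the one member whose class differed between replicates, since replicate 3 classified alone put it in the high class. The median of the members' means was 48.1 TPM, and that of all protein-coding genes was 7.10 TPM. These counts are a description and were not tested, since the genes had been chosen with earlier results of these libraries known.

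The glypicans held more transcript than the syndecans in every replicate, by a small margin. The 6 glypicans summed to 434, 440 and 428 TPM and the 4 syndecans to 369, 378 and 371 TPM, so that syndecans held 46.2 ± 0.268% of the members' TPM (SD, n = 3). As a share of reads, syndecans held 37.7 ± 0.274% where exon length is not divided out. All 10 genes together took between 0.0879% and 0.0892% of the counted reads of a replicate.

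Within the glypicans, GPC4 held 67.7 ± 1.84% of TPM (SD, n = 3), GPC3 11.7 ± 0.987% and GPC6 10.5 ± 0.223%. GPC1 held 5.95 ± 1.08%, GPC2 4.06 ± 0.315% and GPC5 0.073 ± 0.048%. Within the syndecans, SDC4 held 51.4 ± 1.10% of TPM, SDC1 21.5 ± 1.2%, SDC2 16.4 ± 0.229% and SDC3 10.7 ± 0.531%. The dominance of GPC4 was similar by reads, at 66.7 ± 1.78%, but that of SDC4 was not, at 37.8 ± 0.991% of syndecan reads. SDC4 has the shortest exon length of the members (2613 bases) and SDC3 (7065 bases) the second longest, so that SDC3 had 21.4 ± 0.936% of syndecan reads.

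**Figure D2:**
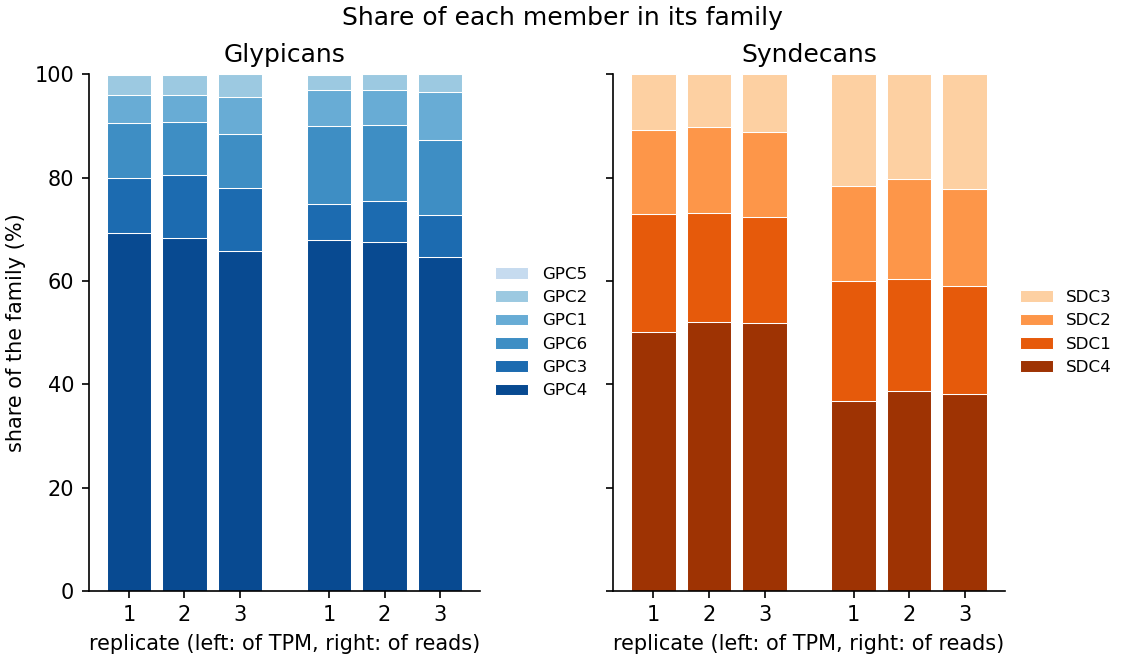
Share of each gene in the summed level of its family (%), for glypicans (left panel) and syndecans (right panel), in each of the 3 replicates, by TPM (left group of bars) and by reads (right group of bars). GPC4 holds between 64.7% and 69.3% of the glypican bars on either measure, SDC4 holds between 50.1% and 52.1% of TPM and between 36.7% and 38.6% of reads, and GPC5 is too small to be seen.

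The members differed in how well their replicates matched. The variance between replicates was compared with the variance expected from counting alone, a ratio with a median of 1.23 over the 18266 genes with at least 20 reads in all. It was 13.4 for GPC1, above 97.1% of these genes, and 3.66 for GPC3, above 82.5%. For GPC4, SDC4 and SDC3 it lay between 1.75 and 2.28, for SDC1 and GPC2 it was 1.06 and 1.04, for SDC2 0.608 and for GPC6 0.158. With TMM-scaled library sizes it was 3.70 for GPC4, against 2.28, and 0.389 for GPC6. The coefficient of variation of TPM was 16.7% for GPC1, where counting would give 4.80%, and between 2.54% and 8.44% for the 8 members other than GPC1 and GPC5. The spread of GPC1 lay in replicate 3, which had 51.4 CPM, against 39.1 and 37.3 CPM in replicates 1 and 2.

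Replicate 3 differed from the others with the GC content of the exons, and the members were set against genes of like GC content. Over the 9946 genes that had no fewer than 100 counts in any replicate, the log2 ratio of replicate 3 to the mean of replicates 1 and 2 had a Spearman's rho of 0.408 with exon GC content across genes, which are not independent and share the same libraries. The ratio was above 0 in 6 of the 9 members with such counts, against 50.5% of all these genes. GPC1, whose exons are the most GC-rich of the members (64.8%), had a log2 ratio of 0.43 ± 0.08 (counting SE), and genes in its bin of GC content had a median of 0.30 with quartiles of 0.15 and 0.42. After correction for GC content the ratio of GPC1 was 0.14.

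SDC1, SDC3 and GPC2, with exon GC contents of 60%, 59.9% and 59.7%, fell in 1 bin, in which the median log2 ratio of replicate 3 was 0.14 (quartiles 0.03 and 0.26). GPC2 had 0.18 ± 0.14 and SDC3 0.11 ± 0.07 (counting SE), both within these quartiles. SDC1 had -0.08 ± 0.07, at percentile 5.84 of the 497 genes of the bin, and the correction for GC content moved it to -0.21. The AT-rich members GPC6, SDC2 and GPC4 had -0.03, 0.02 and -0.06, and GPC3 had 0.12, above 83.7% of the genes in its bin. SDC4, with an exon GC content of 48.8%, had 0.05, above 69.4% of the genes in its bin. With the correction, 6 members were again above 0, but SDC3 moved to -0.02 and GPC6 to 0.02. The part of GC content in these ratios was not tested.

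**Figure D3:**
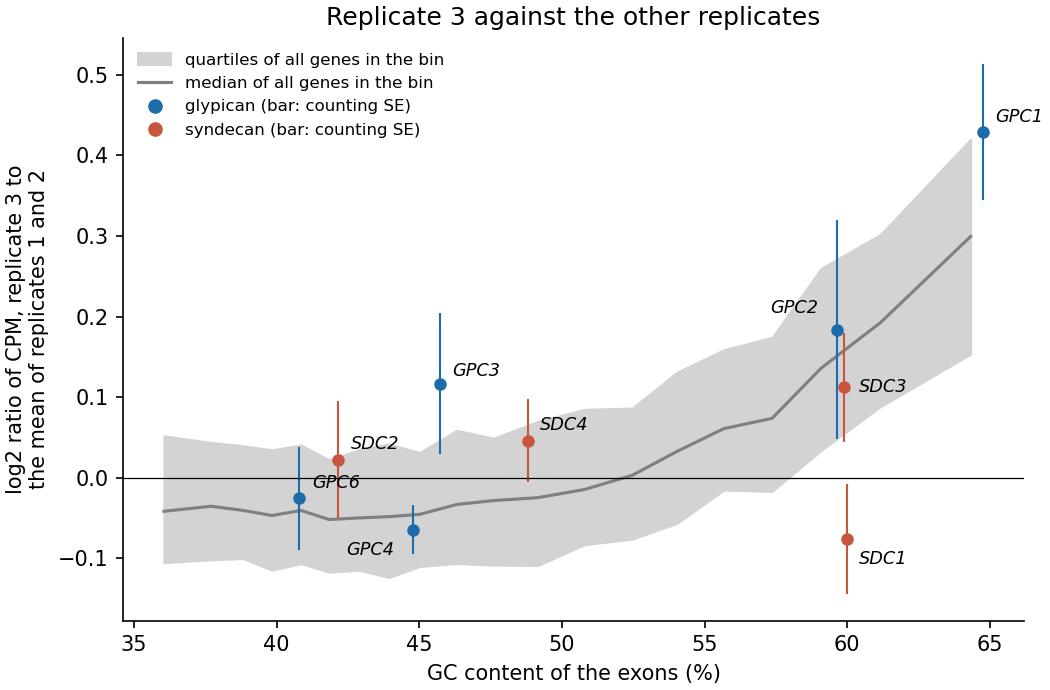
Log2 ratio of CPM in replicate 3 to the mean of replicates 1 and 2, against the GC content of the exons (%), for the 9 members that had no fewer than 100 counts in any replicate (points, bars are counting SE). The gray line and band are the median and quartiles of 20 bins of all such genes; GPC1 lies just above the upper quartile of 0.42, at 0.43, and SDC1, at -0.08, lies below the band.

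All 4 syndecans have 5 exons in their canonical transcript and the glypicans have 8 to 10. GPC4 and GPC3 lie on the same strand of chromosome X with 120255 bases between them, and GPC4 was 6.57, 5.6 and 5.34 times as high as GPC3 in TPM in replicates 1, 2 and 3. GPC5 and GPC6 lie on the same strand of chromosome 13, with 353124 bases between them, and span 1475 and 1181 kb, of which exons are 0.239% and 0.603%. GPC6 had 2548 reads in all and GPC5 had 9. GPC5 begins 1028 bases after the end of MIR17HG, the host gene of the miR-17-92 microRNA cluster on the same strand, on which 323, 438 and 390 reads were counted (11.5 ± 2.02 TPM, SD, n = 3). GPC2 and STAG3, a cohesin subunit of meiosis, start on opposite strands with 181 bases between them. STAG3 had 5.52 ± 0.877 TPM (SD, n = 3), against 17.6 TPM for GPC2.

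No 31-base stretch was common to transcripts of any pair of members, and 0% to 1.83% of the stretches in the 9 members other than GPC6 occurred in a transcript of another gene. In coding sequence, GPC4 and GPC6 were the closest glypicans, with 67.6% of 1652 aligned bases identical, followed by GPC1 and GPC2 with 62.4%. GPC3 was closest to GPC5, at 60.8%. Pairs of syndecans, whose coding lengths differ more, were between 64.5% (SDC1 and SDC2) and 75.1% (SDC3 and SDC4) identical over their aligned bases. GPC6 shared 7.18% of its exon length with ENSG00000278177 on the opposite strand, on which 42, 44 and 30 reads were counted. The strand setting of the counting is not given in the sources used here, so reads of that stretch may belong to either gene. The antisense gene GPC1-AS1, which shares no exonic base with GPC1, had 13, 14 and 17 reads, and GPC5-AS2, GPC6-AS1 and GPC6-AS2 had between 1 and 3 reads in all. ENSG00000282997, a noncoding gene within GPC5 on the same strand, had 7, 3 and 5 reads, more in all than the 9 of GPC5. It shares no exonic base with GPC5.

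The enzymes that build heparan sulfate were examined next, in the order in which they act. Of 32 genes on 5 lists, 23 had at least 1 TPM in every replicate, a share near the 65.1% of all protein-coding genes. All 7 genes for the linker between core protein and chain reached it, with FAM20B, the xylose kinase, highest at 68.2 ± 3.23 TPM (SD, n = 3), followed by XYLT2, a xylosyltransferase, at 25.3 TPM and B3GALT6, a galactosyltransferase, at 25.2 TPM. Of the genes for initiation and polymerization of the chain, 4 of 5 reached it. EXTL2 had 54.7 ± 3.23 TPM, EXTL3, which adds the first N-acetylglucosamine, 49.6 ± 1.69 TPM, and the polymerase subunit EXT1 22.5 ± 1.42 TPM. EXTL1 had 0.473 TPM, from 16 reads in all.

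N-deacetylase/N-sulfotransferases make the first modification of the chain, and NDST1 had the highest counted level of that family. NDST1 had 103, 100.4 and 98.5 TPM, with a mean of 101 ± 2.22 TPM (SD, n = 3), whereas NDST3 had 0.428 TPM and NDST4 2 reads in all. NDST2 had 8 reads in all, or 0.231 TPM, but 82.9% of its exon length is shared with ENSG00000272916 on the same strand, and reads common to both could have been left uncounted, so that its level is uncertain. GLCE, the C5-epimerase, had 8.62 ± 0.279 TPM.

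Among the O-sulfotransferases, 7 of 11 genes reached 1 TPM in every replicate, near the 65.1% of all protein-coding genes. HS6ST1 had 74.4 ± 4.19 TPM, HS2ST1 39.6 ± 1.34 TPM and HS6ST2 18.1 ± 2.57 TPM (SD, n = 3). HS6ST3, the remaining 6-O-sulfotransferase, had 1.67 ± 0.115 TPM. Of the 3-O-sulfotransferases, which make the rarest modification, HS3ST5 was highest with 14.5 ± 1.92 TPM, and HS3ST1 and HS3ST6 had 0.441 and 0.314 TPM. Of the enzymes that act on finished chains outside the cell, the 6-O-endosulfatase SULF2 had 36.5 ± 1.69 TPM, SULF1 5.23 ± 0.275 TPM, heparanase (HPSE) 1.19 ± 0.196 TPM and HPSE2 0.464 TPM.

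**Figure D4:**
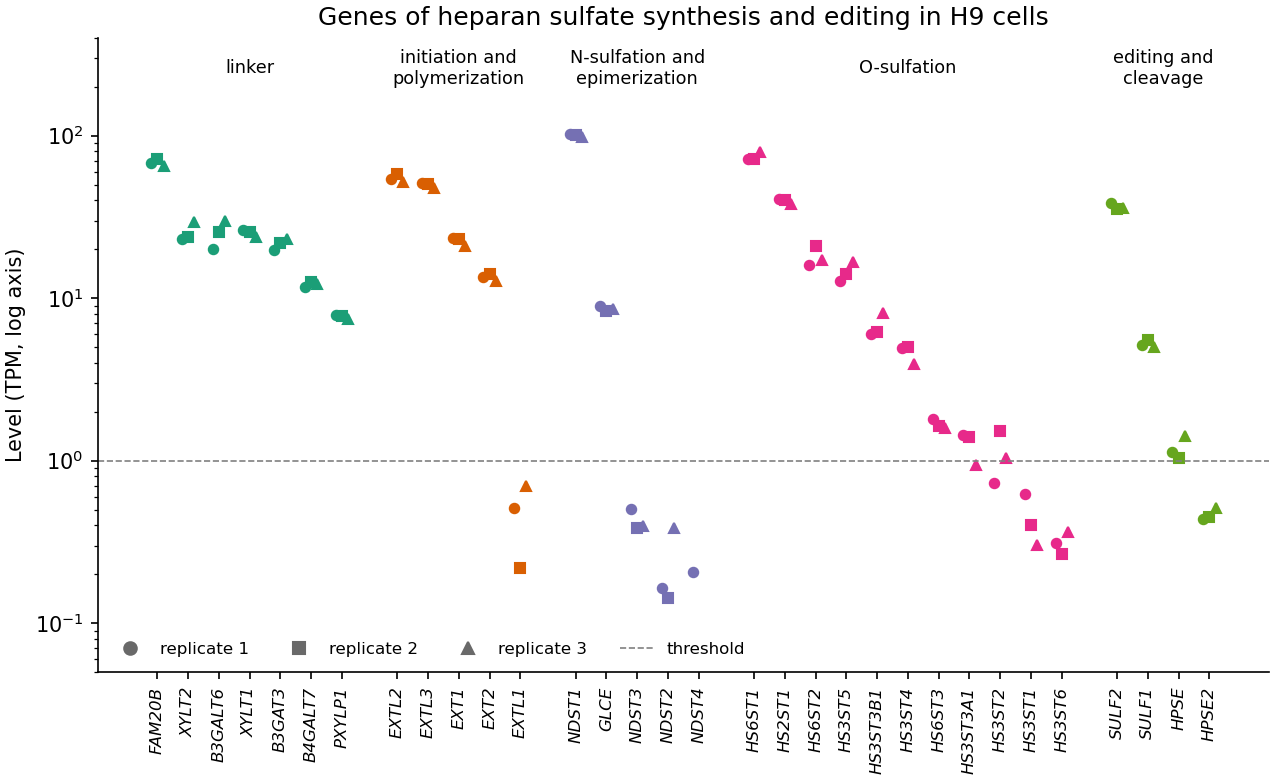
Level in TPM, on a log axis, of 32 genes of heparan sulfate synthesis and editing, grouped by step and ordered by mean, with 1 point for each of the 3 replicates; values of 0 are not drawn and the dashed line is at 1 TPM. All linker genes lie above the line, while NDST1, HS6ST1 and SULF2 lie above their paralogs in every replicate. The level of NDST2 is uncertain, because 82.9% of its exon length is shared with another gene on the same strand.

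Genes for the precursors of the chains were all above 1 TPM, 8 of 8, in every replicate, against 65.1% of all protein-coding genes. UGP2 and UGDH, which make UDP-glucose and UDP-glucuronic acid, had 191 ± 18.3 and 176 ± 13.6 TPM (SD, n = 3), and PAPSS1, which makes the sulfate donor, had 132 ± 4.74 TPM. Syndecans can also carry chondroitin sulfate, and 4 of 6 genes for that chain reached 1 TPM in every replicate, near the 65.1% of all protein-coding genes. CHSY1 was highest at 104 ± 8.09 TPM, followed by CHPF at 36.1 TPM and CHPF2 at 21.7 TPM, while CHSY3 and CSGALNACT1 had 0.690 and 0.336 TPM. On the opposite strand, other genes overlap 20.3% of the exon length of CHPF2 and 12.8% of that of UGDH. On the same strand, 10.65% of the exon length of CHPF2 is overlapped. For SLC35D2, which is among the 8 precursor genes, 46.9% is overlapped on the same strand, so that its level is uncertain.

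Of 10 other genes for proteoglycans that can carry heparan sulfate, 7 reached 1 TPM in every replicate and 2 were in the high class, against 65.1% and 28.8% of all protein-coding genes. The basement membrane genes COL18A1 (94.3 ± 13.9 TPM), AGRN (41.6 ± 7.25 TPM) and HSPG2 (16.8 ± 2.1 TPM, SD, n = 3) were the highest, and replicate 3 was the highest in each of them. COL18A1 and HSPG2 share 18.5% and 11.7% of their exon length with genes on the opposite strand. All 3 were below GPC4 and SDC4. By mean TPM, however, COL18A1 was above every other member, AGRN above SDC3, GPC1, GPC2 and GPC5, and HSPG2 above GPC5 only. SPOCK3, at 0.672 TPM, and serglycin (SRGN), with 1 read in all, were the lowest.

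Core proteins can be cut from the cell surface, and 7 of 8 genes of their release and processing reached 1 TPM in every replicate, against 65.1% of all protein-coding genes. MMP14 had 80.5 ± 1.57 TPM, ADAM10 49.8 ± 0.366 TPM and the convertase FURIN, which cleaves glypicans, 43.2 ± 2.82 TPM (SD, n = 3). NOTUM, an extracellular hydrolase first described as cleaving glypican anchors and now known to act on WNT ligands, had 9 reads in all, or 0.399 TPM. Of 10 genes for partners of the syndecan tail, 9 reached 1 TPM in every replicate and 8 were in the high class, where all protein-coding genes had 65.1% and 28.8%. The actin linker ezrin (EZR) had 549 ± 12.3 TPM, cortactin (CTTN) 162 ± 3.73 TPM and syntenin (SDCBP) 110 ± 5.48 TPM. SDCBP2, the paralog of syntenin, had 3, 16 and 18 reads in replicates 1, 2 and 3.

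Between 8655155 and 12024802 reads were counted on genes in each library. The labelled cell type was checked on 7 pluripotency markers, all in the high class, with means from 275 TPM for NANOG to 799 TPM for POU5F1, 1199.8 TPM for DNMT3B and 2576 TPM for LIN28A. Their summed level lay between 6446 and 6608 TPM. Of 13 markers of other cell types, 10 had at least 1 TPM in every replicate, against 65.1% of all protein-coding genes. None of the 13 was in the high class, which held 28.8% of all protein-coding genes, and the 13 summed to 78.0 to 85.0 TPM. COL1A2 (25.6 TPM), MIXL1 (22.3 TPM) and COL1A1 (14.6 TPM) were the highest of these, while CGA had 1 read and AFP and PECAM1 18 reads each in all. The other trophoblast markers beside CGA were higher, KRT7 at 6.70 TPM and GATA3 at 1.67 TPM. So were the other endoderm markers beside AFP, SOX17 at 1.68 TPM and GATA6 at 1.47 TPM. The part of such cells in the levels of the glypicans and syndecans was not tested.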

How the data were processed

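Per the methods of the study and the submitters' processing notes, reads were trimmed with Trim Galore (0.4.4), aligned to GRCh38 with TopHat2 (2.1.1) and quantified with Cufflinks (2.2.1), whose values were not used here. The deposited values are whole-number counts of reads per Ensembl gene, without normalization. For the counting tool, its annotation and its strand setting, a name was not given in the sources used here.

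Identifiers were joined to GENCODE release 44, on the same build, and 56948 of 58051 matched. The unmatched genes held at most 0.294% of the counts. TPM was computed from the counts with the union of exons as gene length. CPM used all counted reads. Expression classes followed the methods of the study, applied to protein-coding genes. Variance between replicates was divided by the counting variance given the library totals, over genes with at least 20 reads in all. The log2 ratio of replicate 3 was set against 20 bins of exon GC content. Upstream windows came from RefSeq (GRCh38.p14). The libraries held 10390984, 12024802 and 8655155 counts, and precision is poorest for genes with few of them.

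With 1 condition, no test of differential expression was made. R 4.3.3, edgeR 4.0.16 (TMM), DESeq2 1.42.0 (size factors), Python 3.11.15, pandas 2.3.3 and biopython 1.88 were used. The replicate 3 ratio and the variance ratio were run on counts simulated with counting variance alone, a check of the calculation and not of these libraries. The alternatives were another gene length, CPM, other scalings, thinning to 50% and 10% (the median of 11 draws), a GC correction, other thresholds and leaving out each replicate. All 10 members are named, and from each list the 3 highest genes and those with a mean below 1 TPM. HS3ST5, HS6ST3, SDCBP2, the individual cell type markers named and the genes named for their position beside a member fall outside this rule and were chosen after their values were seen. The members and lists were chosen with earlier results of these data known.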

Additional observations from a re-analysis of the deposited data

How the results depend on the processing

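The number of members at or above 1 TPM in every replicate (9), of members in the high class (7) and of heparan sulfate enzyme genes at or above 1 TPM (23) stayed within 1.5 times its value under all 11 alternatives run for each. This margin is wide for counts this small. Since at most 10 members and 32 enzyme genes could be counted, none of these counts could pass its upper limit. With thresholds of 0.1 and 10 TPM, 31 and 16 of the 32 enzyme genes were counted, and 10 and 9 members. The high class held 9 members where all genes, not only protein-coding ones, were classified. The shares of all genes at these thresholds and in this class were not computed, so these counts cannot be set against a background. GPC1 joined the high class with the longest transcript as gene length (34.1 TPM). The syndecan share of 46.2% was 45.2% with the longest transcript as gene length, 45.8% with the counts thinned to 10% and 37.7% as a share of CPM. The share of GPC4 among glypicans, 67.7%, was 60.9% with the longest transcript, and that of SDC4 among syndecans, 51.4%, was 48.0% with the longest transcript and 37.8% as a share of CPM, since neither alternative uses the union of exons as length. Without replicate 1, 2 or 3 these shares lay between 46.1% and 46.3%, 67.0% and 68.8%, and 51.0% and 52.0%, and all 10 members kept their rank. With CPM, 4 members kept their rank, and with the longest transcript 8, as GPC1 and SDC3 changed places. TMM or DESeq2 factors and the GC correction left the mean TPM of each member within its SD. They could hardly do otherwise, since the factors were rescaled to a geometric mean of 1. The GC correction was likewise centered on the mean of each gene over the replicates. Leaving mitochondrial genes out of the TPM total raised the means of 5 members beyond their SD. With TMM-scaled library sizes the variance ratio was 3.70 for GPC4 and 0.389 for GPC6. Depth limits GPC5 most, where 9 reads decide the level. No paired analysis was possible because all 3 libraries belong to a single condition.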
